A study of Mus musculus with 7 samples.

Results

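Genes of the unfolded protein response and the integrated stress response were followed in CD4+ T cells of mice with a conditional knockout of the histone demethylase gene Kdm6a and of their littermates. The 31 genes were a list of symbols taken by name, and the list was chosen with earlier results of these data known. All 31 were found by Ensembl identifier among the 39017 genes of the deposited count table. All 31 passed the filter on low counts that left 15968 genes for testing. The RNA came from 7 libraries, 4 of the conditional knockout (cKO, replicates 2, 3, 7 and 12) and 3 of wild-type littermates (WT, replicates 10, 14 and 19), with the labels' own numbers. Mice of both groups were female C57BL/6 animals homozygous for a floxed Kdm6a allele. The cKO mice also carried 1 copy of the CD4-Cre transgene and the WT mice carried none, and Cre and the deletion therefore cannot be told apart. A Cre driven by Cd4 sequences is active from the thymus onwards, before mature CD4+ T cells form. Lymph nodes were taken on day 17 of experimental autoimmune encephalomyelitis (EAE), in which T cells attack myelin. Lymph node cells were kept for 18 hours with residues 35 to 55 of myelin oligodendrocyte glycoprotein at 25 µg/mL, and CD4+ T cells were then sorted. Age is not given in the sources used here, nor whether each library came from a separate animal, and p-values thus speak only of the spread among the 7 libraries.

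The unfolded protein response adjusts the endoplasmic reticulum (ER) to its load of newly made proteins. Unfolded proteins draw the chaperone BiP away from the sensors IRE1, PERK and ATF6: IRE1 splices the Xbp1 messenger, PERK phosphorylates the translation factor eIF2, and ATF6 is cut into an active transcription factor. The factors made this way raise chaperones, disulfide isomerases and the machinery of ER-associated degradation, which returns misfolded proteins to the cytosol. PERK shares eIF2 with kinases that sense amino acid shortage, heme deficiency and double-stranded RNA, and this wider integrated stress response favours translation of ATF4 and, through it, genes of amino acid supply and feedback. T cells that are activated by antigen enlarge their ER and use both pathways. Splicing, cleavage and phosphorylation are not visible in gene counts, so the values below are levels of messenger RNA alone.

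Much of this control is written in short promoter elements, and the members were therefore placed by sequence first. RefSeq promoter windows on GRCm38.p6, from 250 bases before to 50 bases after the transcript start, were found for 27 of the 31 genes and not for Atf6, Derl1, Hyou1 and Manf. Both strands were searched for 4 elements by exact letters. The ER stress response element (ERSE), bound by NF-Y with ATF6 or XBP1, was taken as CCAAT, 9 bases of any kind and CCACG. It was found in 9 of the 27 members (33.3%) and in 0.137% of the 27025 genes of the promoter table. The members were listed as genes of this pathway, so a larger share than among all genes is a description and no test. These 9 are shown because they hold the pathway's own element. Hspa5, which encodes BiP, has it in this window, with the whole element in capitals.
Hspa5 promoter, chr2:34771840-34772139, plus strand: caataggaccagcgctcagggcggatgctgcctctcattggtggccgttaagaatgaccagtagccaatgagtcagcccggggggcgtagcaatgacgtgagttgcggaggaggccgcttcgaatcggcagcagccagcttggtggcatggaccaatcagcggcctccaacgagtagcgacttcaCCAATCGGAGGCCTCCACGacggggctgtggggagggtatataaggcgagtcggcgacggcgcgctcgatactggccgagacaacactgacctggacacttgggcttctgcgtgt

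The other sites are given with 10 bases on either side, read along the strand that holds the element, with the fixed letters in capitals. Hsp90b1 held a pair of them.
Calr, chr8:84847075-84847093, plus strand: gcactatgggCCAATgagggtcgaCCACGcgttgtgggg
Derl3, chr10:75893242-75893260, minus strand: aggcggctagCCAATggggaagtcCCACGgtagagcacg
Hsp90b1, chr10:86705638-86705656, minus strand: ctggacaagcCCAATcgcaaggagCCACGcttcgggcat
Hsp90b1, chr10:86705533-86705551, plus strand: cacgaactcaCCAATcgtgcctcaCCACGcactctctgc
Canx, chr11:50325800-50325818, minus strand: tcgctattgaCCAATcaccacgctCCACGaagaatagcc
Pdia6, chr12:17266491-17266509, plus strand: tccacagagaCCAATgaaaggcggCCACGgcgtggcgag
Dnajc3, chr14:118937827-118937845, plus strand: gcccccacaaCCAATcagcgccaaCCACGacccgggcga
Creld2, chr15:88819520-88819538, minus strand: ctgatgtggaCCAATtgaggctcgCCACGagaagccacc
Syvn1, chr19:6046532-6046550, plus strand: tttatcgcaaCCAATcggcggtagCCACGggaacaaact

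The second form, ERSE-II (ATTGG, 1 base of any kind and CCACG), ends in the same letters as ERSE, and no site of one overlapped a site of the other. It was found in 2 members (7.41%) and in 0.0444% of all genes of the promoter table.
Herpud1, chr8:94386377-94386387, plus strand: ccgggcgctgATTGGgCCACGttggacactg
Dnajb11, chr16:22857852-22857862, plus strand: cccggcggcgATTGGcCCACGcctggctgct

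The C/EBP-ATF element of ATF4 targets, searched as TGATGNAA, was found in 4 members (14.8%) and in 4.51% of all genes. All 4 of those members are known targets of ATF4.
Chac1, chr2:119351049-119351056, minus strand: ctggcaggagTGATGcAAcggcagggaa
Trib3, chr2:152344039-152344046, plus strand: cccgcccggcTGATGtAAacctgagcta
Asns, chr6:7693225-7693232, minus strand: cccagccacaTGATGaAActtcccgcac
Herpud1, chr8:94386317-94386324, minus strand: gggtgcgggcTGATGcAAcccgccgtgg

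The unfolded protein response element core TGACGTGG was in 0 of 27 members and in 0.714% of all genes. Dnajb9 and Ppp1r15a, which fell in cKO cells, held a match to none of the 4 elements in these windows, and neither did Ddit3. A match is a description of the letters and a missing match says nothing of binding elsewhere.
Dnajb9 promoter, chr12:44210019-44210318, minus strand: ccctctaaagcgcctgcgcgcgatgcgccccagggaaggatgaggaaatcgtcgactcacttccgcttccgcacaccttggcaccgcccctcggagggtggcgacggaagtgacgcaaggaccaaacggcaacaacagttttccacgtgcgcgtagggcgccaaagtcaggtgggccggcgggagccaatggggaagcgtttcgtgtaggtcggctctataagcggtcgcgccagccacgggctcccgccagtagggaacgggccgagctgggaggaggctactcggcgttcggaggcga
Ppp1r15a promoter, chr7:45526219-45526518, minus strand: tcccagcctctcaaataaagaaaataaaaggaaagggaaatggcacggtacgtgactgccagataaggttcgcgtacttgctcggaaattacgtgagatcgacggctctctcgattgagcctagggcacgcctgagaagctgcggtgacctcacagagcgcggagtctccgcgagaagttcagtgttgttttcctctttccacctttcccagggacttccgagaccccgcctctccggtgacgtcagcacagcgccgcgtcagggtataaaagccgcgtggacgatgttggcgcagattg

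In cKO cells 1 of the 31 genes rose, the ER chaperone gene Hyou1, and 2 fell, the ER co-chaperone gene Dnajb9 and the eIF2 phosphatase subunit gene Ppp1r15a. Of all genes tested, edgeR's quasi-likelihood test called 6.44% at an adjusted p under 0.05, 2.79% higher and 3.64% lower, so that the members' counts were close to the background. At an unadjusted p under 0.05 there were 7 members higher and 4 lower, where 11.1% and 10.4% of all tested genes were higher and lower. DESeq2 called 3 higher and 3 lower, against 4.43% and 4.93% of the genes it tested, and limma voom called 3 and 3, against 5.02% and 5.81%. Fold changes of the members were mostly small and mostly above 0: 24 of 31 log2 fold changes (77.4%) were above 0, against 52.2% of those of all tested genes, and the median was 0.127 for the members and 0.011 for all tested genes. In 23 members the log2 fold change was within 0.3 of 0, as in 73.6% of all tested genes. Libraries did not overlap between the groups for 12 members. In 8 of them every cKO library was above every WT library, which held for 10.3% of all tested genes, and in 4 every cKO library was below, which held for 10.7%.

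**Figure D1:**
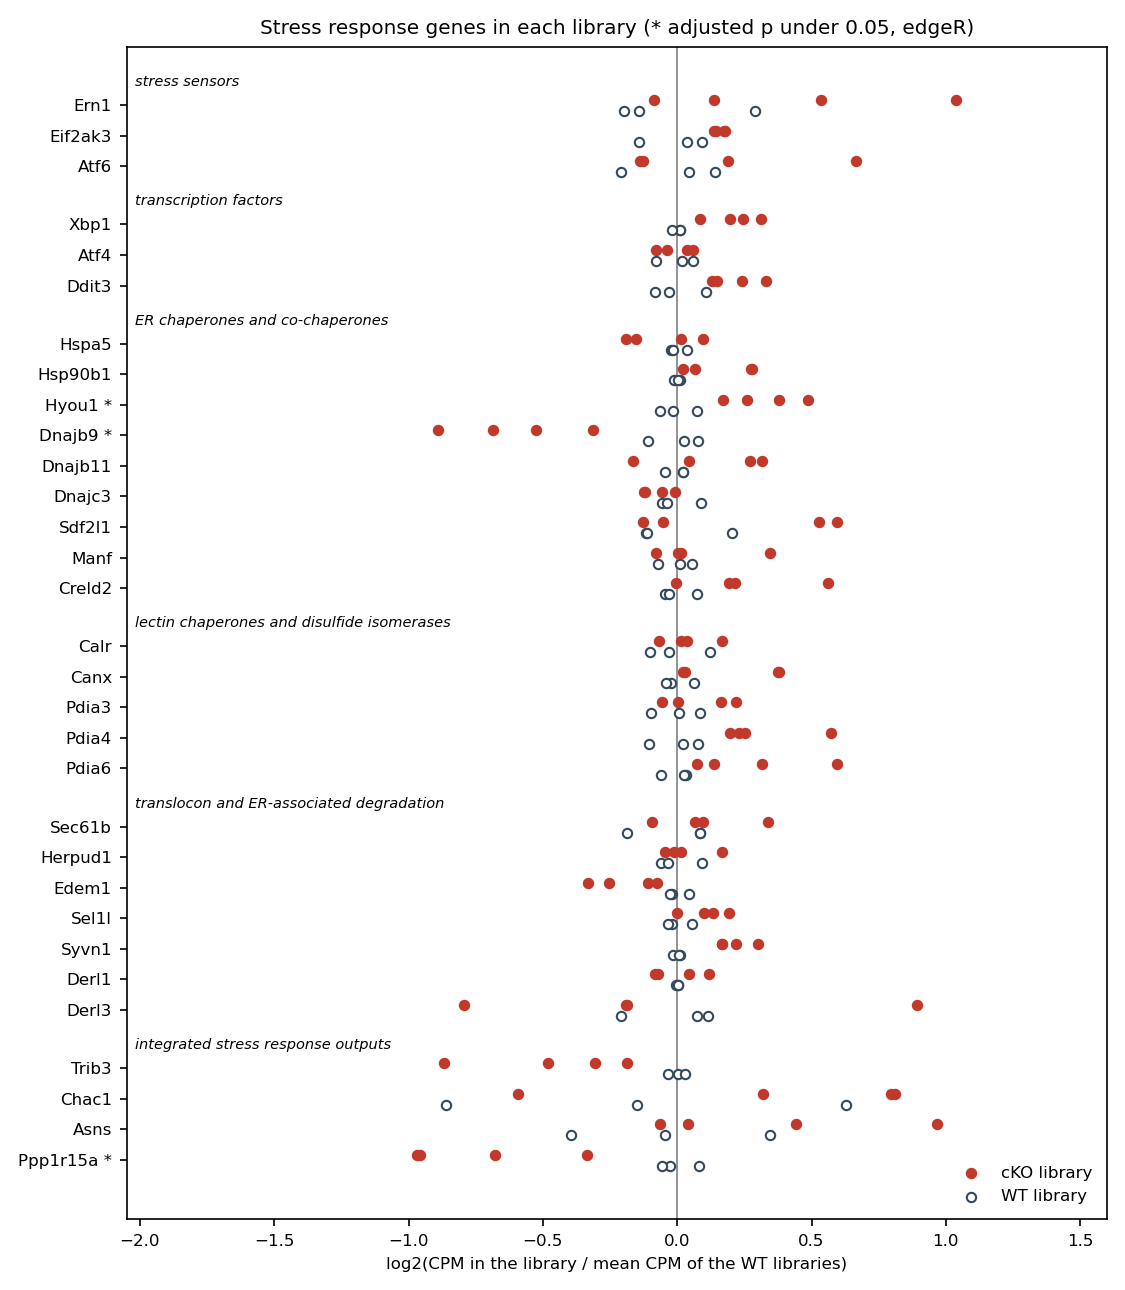
Level of each of the 31 genes in each library, as log2 of the CPM in that library over the mean CPM of the 3 WT libraries, with cKO libraries as filled points and WT libraries as open points, grouped by role. The cKO points of Dnajb9 and Ppp1r15a lie wholly to the left of the WT points and those of Hyou1 wholly to the right. Most other genes have a group log2 fold change within 0.3 of 0, though single libraries of many lie further out.

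Libraries held 17910536 to 23721927 counts in cKO and 25360660 to 28697579 counts in WT. The transcript Gm42418 took 9.22%, 4.26%, 3.79% and 3.76% of the counts in cKO replicates 2, 3, 7 and 12. In WT replicates 10, 14 and 19 it took 2.55%, 2.62% and 2.98%. Neither depth nor this share overlapped between the groups, and their part in the results cannot be told apart from genotype. Levels are given as CPM, the count scaled to library size with TMM factors. Kdm6a itself had 104, 96.3, 100 and 104 CPM in cKO replicates 2, 3, 7 and 12, against 120, 125 and 113 CPM in WT replicates 10, 14 and 19 (exact two-sided permutation p = 0.0571, the smallest that doubling the smaller tail allows for 4 against 3 libraries, so that this test could not pass 0.05). Counts over a whole gene need not show the loss of some exons. T cell markers were abundant in every library, with summed levels of 3636 to 4406 CPM in cKO and 3703 to 4195 CPM in WT for 10 genes. Of these 10, edgeR called Cd6 higher in cKO (log2 0.41, adjusted p = 0.0407) and Thy1 lower (log2 -1.06, adjusted p = 0.0414). In 4 of them every cKO library was above every WT library, which held for 10.3% of all tested genes. In 1 every cKO library was below, which held for 10.7%. For this and the other marker lists, edgeR called 2.79% of all tested genes higher and 3.64% lower. Markers of cells that carry a large ER were also measured. The 14 plasma cell markers summed to 704 to 1976 CPM in cKO and 795 to 877 CPM in WT. Among the defining ones, Jchain had 2.92 to 31.03 CPM in cKO and 5.22 to 6.00 CPM in WT, and Tnfrsf17 had at most 2 counts in a cKO library and was at 0 in every WT library. The 1 of them that edgeR called, Sdc1, was lower in cKO. The 11 B cell markers summed to 42.8 to 230 CPM in cKO and 42.6 to 96.8 CPM in WT. All 11 had log2 fold changes above 0, with a median of 1.041. Of them edgeR called 0, with 1 higher at an unadjusted p under 0.05, 1 higher by DESeq2 and 0 by limma voom. Both lists overlapped between the groups, and with their mean level as a covariate the calls of Hyou1 (adjusted p = 0.0333), Dnajb9 (0.0328) and Ppp1r15a (0.0299) were kept by edgeR. The summed levels of monocyte, NK cell and CD8 T cell markers did not overlap between the groups. They were 109 to 263 CPM in cKO and 79.98 to 104 CPM in WT for 12 monocyte and macrophage markers, of which 1, Ly6c2, was called higher. Much of these sums was Ccr2, with 64.5 to 144 CPM in cKO and 46.0 to 65.7 CPM in WT, overlapping. The 9 tested monocyte markers had log2 fold changes from 0.00 for Csf1r to 3.86 for Adgre1. The 13 dendritic cell markers summed to 269 to 768 CPM in cKO and 149 to 313 CPM in WT, which overlapped. Of these edgeR, DESeq2 and limma voom called 0, with 4 higher at an unadjusted p under 0.05, and Clec9a was at 0 throughout. The 7 NK cell markers summed to 98.3 to 115 CPM in cKO and 60.2 to 84.9 CPM in WT. Of them 3 were called higher, Klrb1c (log2 1.80), Klrk1 (2.29) and Klre1 (4.31). Not called were Ncr1 (0.01), Prf1 (0.05), Tyrobp (0.71) and Gzma (-0.52). Both CD8 T cell markers, Cd8a and Cd8b1, together had 12.9 to 16.3 CPM in cKO and 9.12 to 11.5 CPM in WT, with 0 called by edgeR, 2 higher with an unadjusted p under 0.05, and 1 higher by DESeq2 and 1 by limma voom. Their part in the results was not tested. Eif2ak3, Ddit3, Hsp90b1, Dnajb9, Dnajb11, Manf, Pdia3, Pdia6, Herpud1, Syvn1 and Ppp1r15a overlap an annotated gene on the opposite strand, so that some of their reads may belong to it if strand was not used in counting. In bulk RNA, fewer cells of a type and less RNA per cell cannot be told apart.

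The sensors stood at moderate levels, and edgeR called 0 of 3 (1 at an unadjusted p under 0.05, 0 by DESeq2 and by limma voom). Eif2ak3, which encodes PERK, had 68.6, 68.6, 67.1 and 66.8 CPM in cKO replicates 2, 3, 7 and 12, and 55.0, 62.3 and 64.8 CPM in WT replicates 10, 14 and 19. The cKO libraries were nearly identical and all above the WT libraries, but the log2 fold change of 0.16 ± 0.07 (SE) did not pass the edgeR test (adjusted p = 0.207). Ern1, which encodes IRE1, had 152, 81.2, 69.5 and 107 CPM in cKO and 67.0, 90.1 and 64.3 CPM in WT. Its cKO libraries spread 2.18-fold from lowest to highest and overlapped the WT libraries (log2 0.47 ± 0.24, edgeR adjusted p = 0.315). Atf6 had 87.8, 50.2, 50.6 and 63.1 CPM in cKO and 61.0, 57.1 and 47.9 CPM in WT, again with cKO replicate 2 highest (log2 0.18 ± 0.19, edgeR adjusted p = 0.636). The log2 value of Atf6 was -0.02 without that library.

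The transcription factors differed little between the groups, with 0 of 3 called by edgeR (2 higher at an unadjusted p under 0.05, 0 by DESeq2 and by limma voom). Xbp1, the factor activated by IRE1, had 106, 97.8, 115 and 109 CPM in cKO and 92.9, 93.1 and 91.0 CPM in WT. The groups did not overlap, and its log2 fold change of 0.21 ± 0.06 (SE) had an edgeR adjusted p of 0.0885, or 0.0494 without cKO replicate 3. Ddit3, which encodes the factor CHOP of prolonged stress, had 30.9, 26.9, 27.3 and 29.0 CPM in cKO and 24.1, 23.2 and 26.5 CPM in WT, also without overlap (log2 0.21 ± 0.08, edgeR adjusted p = 0.166). Atf4 had 251, 247, 235 and 229 CPM in cKO and 244, 229 and 251 CPM in WT. Those ranges were almost the same, and the fold change, cKO over WT, was 0.997 (edgeR adjusted p = 0.977). ATF4 is controlled mainly through translation, which these counts do not measure.

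Among the ER chaperones and co-chaperones, 1 of 9 rose and 1 fell, against 2.79% higher and 3.64% lower among all tested genes. Hyou1 (ENSMUSG00000032115, chromosome 9, 44379490 to 44392369 on mm10) encodes GRP170, a large chaperone that also exchanges nucleotide on BiP. It had 144, 125, 133 and 155 CPM in cKO replicates 2, 3, 7 and 12, and 106, 110 and 117 CPM in WT replicates 10, 14 and 19. Every cKO library was above every WT library, with means of 139 ± 13.3 CPM in cKO and 111 ± 5.38 CPM in WT (SD, n = 4 and 3), a log2 fold change of 0.33 ± 0.08 (SE, edgeR adjusted p = 0.0408). It missed the threshold when cKO replicate 2 (0.0613), 7 (0.0544) or 12 (0.0604) or WT replicate 10 (0.165), 14 (0.158) or 19 (0.085) was left out, at log2 fold changes of 0.27 to 0.37.

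Dnajb9 (ENSMUSG00000014905, chromosome 12, 44205559 to 44210326 on mm10) encodes ERdj4, a co-chaperone that brings BiP to IRE1 and is a known target of XBP1. It had 36.6, 42.2, 54.6 and 47.2 CPM in cKO, and 69.1, 71.7 and 62.9 CPM in WT. All cKO libraries were below all WT libraries, and the level fell by 33.4%, with a log2 fold change of -0.59 ± 0.12 (SE, edgeR adjusted p = 0.0205). It missed the threshold when cKO replicate 3 (0.0545) or WT replicate 10 (0.0825), 14 (0.101) or 19 (0.0529) was left out. Dnajb9 and Hyou1 thus moved in opposite directions within the same group of genes.

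The other 7 chaperone genes were not past the threshold. Hspa5, the most abundant, had 473, 461, 532 and 563 CPM in cKO and 518, 540 and 521 CPM in WT. Its WT libraries lay inside the cKO range, and its log2 fold change was -0.05 ± 0.08 (SE, edgeR adjusted p = 0.754). Hsp90b1, which encodes the ER form of HSP90, GRP94, had 350, 293, 303 and 350 CPM in cKO and 291, 287 and 289 CPM in WT. The groups did not overlap, though cKO replicate 3 lay just above the highest WT library (log2 0.17 ± 0.08, edgeR adjusted p = 0.247). Dnajb11 and Dnajc3 encode further BiP partners, Manf a secreted ER factor, and Sdf2l1 and Creld2 small folding factors. Their log2 fold changes ran from -0.08 for Dnajc3 to 0.27 for Sdf2l1, and the groups overlapped in all 5. Sdf2l1 had 27.6, 17.5, 18.5 and 29.0 CPM in cKO and 22.1, 17.7 and 17.7 CPM in WT, so that replicates 2 and 12 lay above all WT libraries and replicates 3 and 7 did not.

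Of the lectin chaperones and disulfide isomerases, all 5 had log2 fold changes above 0 and edgeR called 0 (2 higher at an unadjusted p under 0.05, 1 by DESeq2 and 1 by limma voom). Pdia4, which encodes the isomerase ERp72, had 159, 122, 127 and 125 CPM in cKO and 108, 99.1 and 113 CPM in WT. It was higher in every cKO library (log2 0.32 ± 0.10 SE), with an adjusted p of 0.0882 by edgeR, 0.0341 by DESeq2 and 0.0336 by limma voom. Pdia6, another isomerase gene, had 88.7, 74.9, 78.3 and 108 CPM in cKO and 72.9, 72.5 and 68.3 CPM in WT, also without overlap (log2 0.29 ± 0.12, edgeR adjusted p = 0.178). Calr and Canx, which encode the lectin chaperones calreticulin and calnexin, and Pdia3, whose product ERp57 works with both, overlapped between the groups, with log2 fold changes of 0.04 for Calr, 0.21 for Canx and 0.09 for Pdia3.

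In the translocon and ER-associated degradation group edgeR called 0 of 7 (with an unadjusted p under 0.05, 1 was higher and 1 lower, as by limma voom, and by DESeq2 1 was higher). Syvn1, which encodes HRD1, the ubiquitin ligase at the centre of this machinery, had 84.3, 81.3, 89.1 and 81.2 CPM in cKO and 71.6, 72.9 and 72.7 CPM in WT. Both groups were tight and did not overlap (log2 0.21 ± 0.06 SE), and the adjusted p was 0.0552 by edgeR, 0.031 by DESeq2 and 0.0176 by limma voom, and 0.0382 by edgeR with a stricter filter. Edem1, which encodes a lectin-like factor that passes glycoproteins to degradation, had 309, 264, 280 and 316 CPM in cKO and 329, 343 and 327 CPM in WT. It was lower in every cKO library (log2 -0.19 ± 0.07), with an adjusted p of 0.163 by edgeR and 0.0286 by limma voom. Sel1l, the partner of HRD1, Herpud1, a regulator of the same complex, Derl1, a channel component, and Sec61b, a subunit of the translocon, had log2 fold changes from 0.00 for Derl1 to 0.11 for Sec61b and Sel1l. Derl1 averaged 103 ± 6.88 CPM in cKO and 103 ± 0.301 CPM in WT (SD, n = 4 and 3).

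Derl3, a Derlin gene best known from secretory cells such as plasma cells, was near the lower limit of detection. It had 1.52, 0.998, 3.21 and 1.52 CPM in cKO and 1.82, 1.87 and 1.5 CPM in WT, from 24 to 74 counts in cKO and 38 to 54 counts in WT. The highest value was in cKO replicate 7, which also held the highest summed plasma cell markers (1976 CPM, against 704 to 995 CPM in the other cKO libraries). Without that library the log2 fold change of Derl3 was -0.38 (edgeR adjusted p = 0.501). Their part in the Derl3 value was not tested.

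Among the outputs of the integrated stress response, 1 of 4 fell and edgeR called 0 higher (0 at an unadjusted p under 0.05, 0 by DESeq2 and by limma voom). Of all tested genes 3.64% were called lower. Ppp1r15a (ENSMUSG00000040435, chromosome 7, 45522916 to 45526268 on mm10) encodes GADD34, which brings protein phosphatase 1 to eIF2 and so ends the response. It had 218, 336, 265 and 216 CPM in cKO, and 416, 448 and 408 CPM in WT. All cKO libraries were below all WT libraries, with means of 259 ± 56.1 CPM in cKO and 424 ± 21.3 CPM in WT (SD, n = 4 and 3). The level fell by 38.9%, a log2 fold change of -0.71 ± 0.14 (SE, edgeR adjusted p = 0.0174). It missed the threshold when WT replicate 10 (0.0614), 14 (0.0887) or 19 (0.059) was left out, and passed when any single cKO library was.

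Ppp1r15a was first described as a primary response gene, and a list of handling and immediate early genes was lower in sum in the same libraries. This list of 20 genes also held the heat shock genes Hspa1a, Hspa1b and Hspa8. Of the 20, edgeR called 6 lower and 0 higher (with an unadjusted p under 0.05, 13 were lower and 0 higher, by DESeq2 11 and 0, by limma voom 9 and 0). Of all tested genes edgeR called 3.64% lower and 2.79% higher. Their summed level was 4569 to 5155 CPM in cKO and 6854 to 7879 CPM in WT. The mean level of the 20 genes served as a covariate, named the immediate early covariate below. With it edgeR called 32 genes in the whole table, and the log2 fold change of Ppp1r15a was -0.68 (adjusted p = 0.493). Hyou1 (0.27, adjusted p = 0.617) and Dnajb9 (-0.79, adjusted p = 0.341) missed the threshold there too. The groups did not overlap in the summed level of the 20 genes, and its part in these results cannot be told apart from genotype.

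Trib3, which encodes a pseudokinase that feeds back on ATF4 and CHOP, had 21, 30.9, 33.6 and 27.4 CPM in cKO and 38.4, 39.0 and 37.3 CPM in WT. Every cKO library was below the WT libraries (log2 -0.43 ± 0.14 SE), with an adjusted p of 0.099 by edgeR and 0.0316 by DESeq2. Asns, the asparagine synthetase gene, had 9.0, 6.82, 6.34 and 13.0 CPM in cKO and 8.43, 6.42 and 5.04 CPM in WT, overlapping widely (log2 0.40 ± 0.27, edgeR adjusted p = 0.438). Chac1, which encodes a glutathione-degrading enzyme, had 0.332 to 0.876 CPM in cKO and 0.276 to 0.774 CPM in WT, and a difference could not be detected at 7 to 20 counts per library in both groups. The outputs with most reads, Ppp1r15a and Trib3, were thus lower in every cKO library, while Asns and Chac1 overlapped between the groups.

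**Figure D2:**
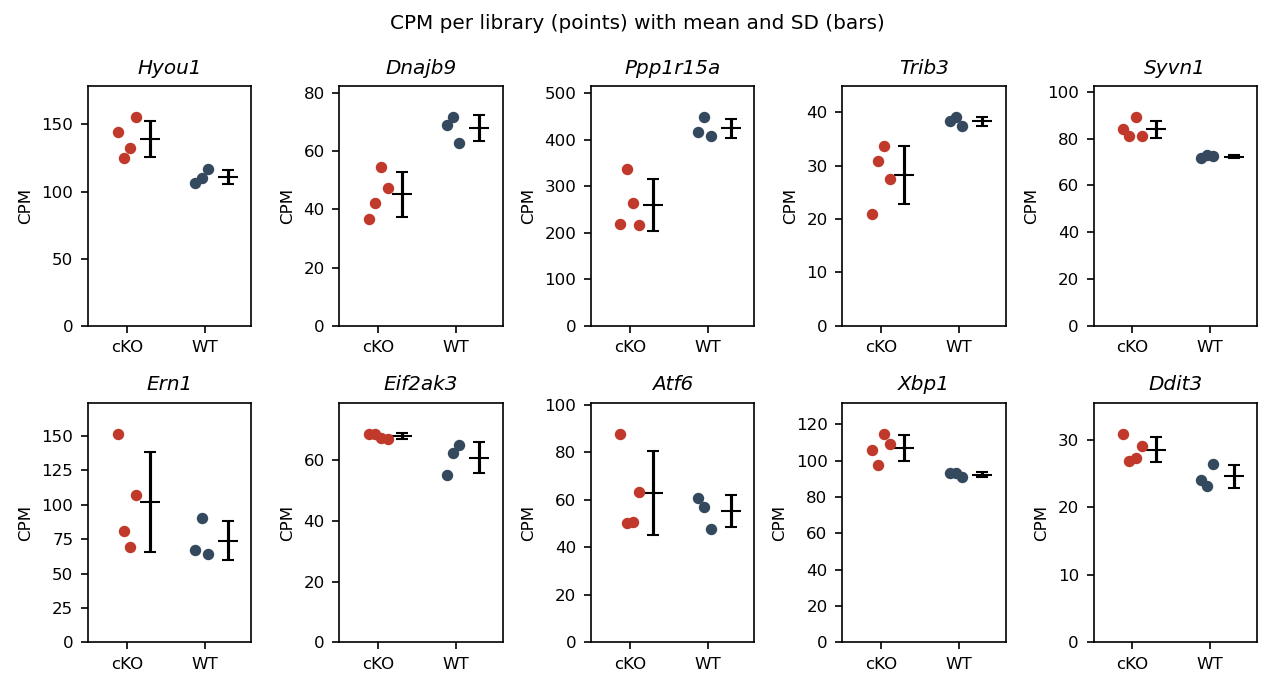
CPM of 10 genes in each library, cKO left and WT right, with points for libraries and bars for the mean and SD of each group, on axes that start at 0. Hyou1, Syvn1 and Xbp1 lie higher in cKO and Dnajb9, Ppp1r15a and Trib3 lower, while 1 high cKO library stands out for Ern1 and Atf6.

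Levels were compared between genes as CPM per kilobase of annotated exon, which corrects for length only as far as all annotated exons are used. Calr had the highest level per length (153 in cKO and 149 in WT), followed in cKO by Hspa5 (120, and 124 in WT), Pdia3 (109, and 103 in WT) and Atf4 (102 in both groups). Ppp1r15a stood at 88.1 per kilobase in cKO and 144 in WT, so that it came next after Calr in WT and after Atf4 in cKO. The sensors were among the lowest, with levels per length of 12.5 in cKO and 9.03 in WT for Ern1, 11.2 and 10.1 for Eif2ak3, and 6.82 and 5.99 for Atf6. Derl3 and Chac1 were under 1 CPM per kilobase in both groups. The ranges of Calr and Hspa5 did not overlap within cKO or within WT, while those of Pdia3 and Atf4, next in order, overlapped in both groups.

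**Figure D3:**
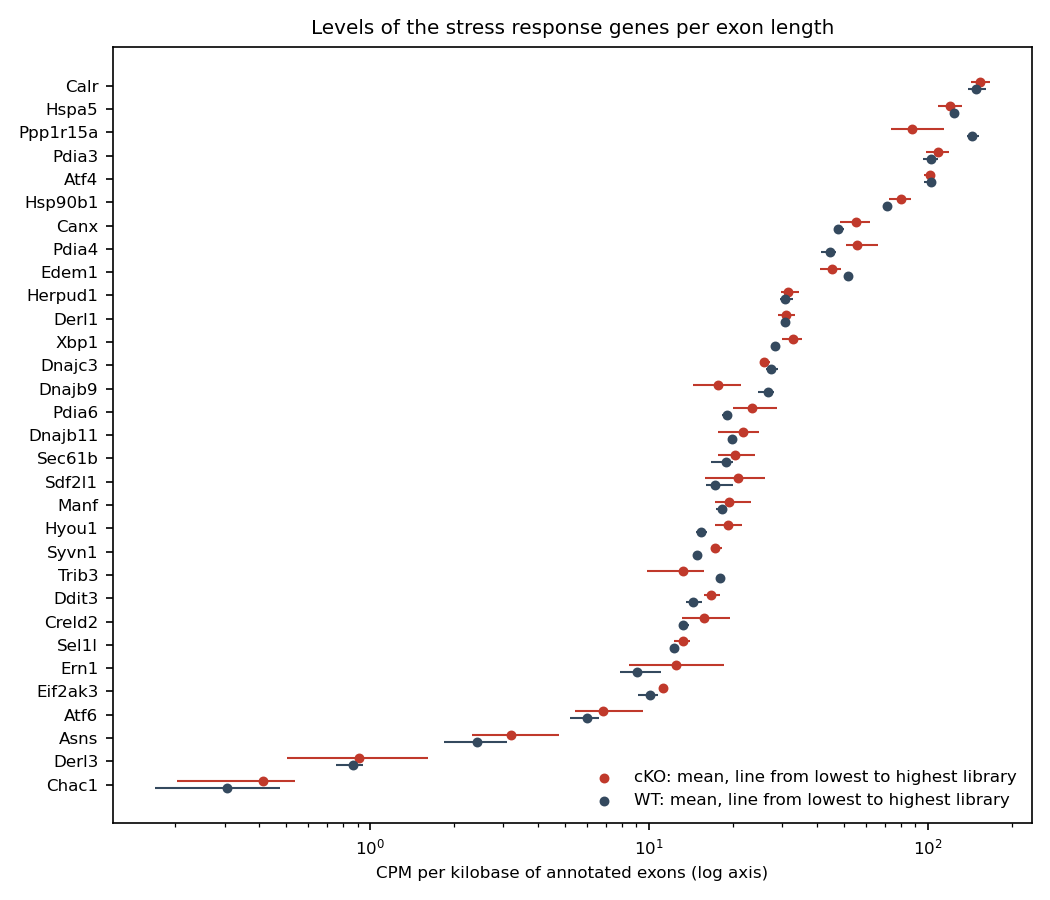
Level of each of the 31 genes as CPM per kilobase of annotated exon on a log axis, with the mean of each group as a point and a line from its lowest to its highest library, cKO above WT. Levels span from under 1 for Chac1 and Derl3 to over 100 for Calr, Hspa5 and Pdia3, and the WT line of Ppp1r15a lies right of its cKO line.

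The cKO libraries differed among themselves more than the WT libraries did for these genes. The median coefficient of variation over the 31 genes was 12.6% in cKO and 5.02% in WT, where that over all tested genes was 11.6% in cKO and 8.23% in WT. Replicate 12 was the highest cKO library for 17 of the 31 genes, but for only 27.6% of all tested genes. Replicate 3 was the lowest for 22 of the 31, but for only 21% of all tested genes. Replicates 2 and 12 both stood above replicates 3 and 7 for 18 members (58.1%), among them 7 of the 9 chaperone genes, against 21% of all tested genes. Creld2, for example, had 21 and 26.6 CPM in replicates 2 and 12, and 18.0 and 20.7 CPM in replicates 3 and 7. The B cell markers summed to 230 and 42.8 CPM in replicates 2 and 12, and to 99.9 and 174 CPM in replicates 3 and 7. Plasma cell markers summed to 995 and 704 CPM in replicates 2 and 12, and to 828 and 1976 CPM in replicates 3 and 7. For T cell markers the sums were 3843 and 4406 CPM in replicates 2 and 12, and 3636 and 3782 CPM in replicates 3 and 7. The part of cell types in the pattern was not tested. The members are genes of 1 pathway measured in the same libraries, and their shared pattern is no replicate of a condition.

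None of the 3 genes called by edgeR was among the members with an element shown above, and Hyou1 had no promoter window. Of the 9 members with an ERSE, edgeR called 0, while 2 were higher with an unadjusted p under 0.05 and Syvn1 alone was called by DESeq2 and limma voom. Their log2 fold changes ran from -0.08 to 0.29 with a median of 0.17, and 7 of 9 were above 0. The 16 matched members with neither ERSE nor ERSE-II ran from -0.71 to 0.47 with a median of 0.13, and 2 of them, Dnajb9 and Ppp1r15a, fell. Herpud1 and Dnajb11, with an ERSE-II, had log2 fold changes of 0.03 and 0.13. Of the 4 members with the C/EBP-ATF element, Asns, Chac1 and Herpud1 had values above 0 and Trib3 one below.

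Beyond the 31 genes, 205 further genes of these pathways were tested, from 8 lists named by function. In cKO 9 of them rose and 2 fell, against 2.79% higher and 3.64% lower among all tested genes, and their median log2 fold change was 0.058. With the immediate early covariate edgeR called none of these 11. In the list of eIF2 kinases, eIF2, eIF2B and phosphatases, 1 of 19 rose. This was Eif2ak2, which encodes PKR, the kinase that senses double-stranded RNA, with 79.6, 68.9, 69.7 and 62.6 CPM in cKO and 54.1, 49.7 and 52.7 CPM in WT (log2 0.43 ± 0.08 SE, edgeR adjusted p = 0.0162). Its call was lost without WT replicate 10 (0.0564), 14 (0.101) or 19 (0.0638). Eif2ak4, which encodes the amino acid sensor GCN2, had 29.7 to 33.5 CPM in cKO and 26.6 to 27.5 CPM in WT, without overlap (edgeR adjusted p = 0.0764). Over the 19 genes, 3 were higher and 1 lower in every cKO library, against 10.3% and 10.7% of all tested genes, and the median log2 fold change was -0.002.

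Of 44 ATF4 targets and amino acid response genes 3 rose and edgeR called 0 lower (1 lower at an unadjusted p under 0.05, 0 by DESeq2 and by limma voom). Of all tested genes 2.79% were called higher and 3.64% lower, and the list was not tested as a set. Stc2, which encodes a secreted stress-induced glycoprotein, had 28.2, 15.2, 15.1 and 17.4 CPM in cKO and 10.7, 8.26 and 7.92 CPM in WT (log2 1.08 ± 0.23 SE, edgeR adjusted p = 0.0247). Vldlr, a lipoprotein receptor gene induced by ATF4, had 5.78, 6.36, 5.86 and 2.79 CPM in cKO and 2.48, 1.63 and 0.985 CPM in WT (log2 1.61 ± 0.36, edgeR adjusted p = 0.03). Slc1a5, which encodes the glutamine transporter ASCT2, had 260, 251, 265 and 275 CPM in cKO and 226, 229 and 222 CPM in WT (log2 0.22 ± 0.05, edgeR adjusted p = 0.0387). Groups did not overlap in any of the 3, but each call was lost in several fits with 1 library left out. Over all genes the 1028 calls also fell, to 497, 419 and 466 without WT replicates 10, 14 and 19. That of Stc2 was lost without WT replicate 10 (0.052), 14 (0.122) or 19 (0.111), while Vldlr lost its own when cKO replicate 3 (0.0705) or 7 (0.0616) or WT replicate 14 (0.134) or 19 (0.105) was left out. Slc1a5 missed the threshold when leaving out cKO replicate 7 (0.0834) or 12 (0.0681) or WT replicate 10 (0.138), 14 (0.127) or 19 (0.135), with no filter (0.0789), and with the B and plasma cell covariate (0.0727).

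Of 18 sensor regulators and related factors 1 rose and 1 fell, against 2.79% higher and 3.64% lower among all tested genes. Map3k5, which encodes the kinase ASK1 that acts below IRE1, had 81.9, 84.1, 84.8 and 82.5 CPM in cKO and 147, 155 and 153 CPM in WT. The groups were tight and far apart (log2 -0.87 ± 0.05 SE, edgeR adjusted p = 2.97e-05), and the call was kept without any single library (adjusted p of at most 0.000525). Creb3l2, which encodes a membrane-bound factor of the ATF6 type, had 80.7, 69.1, 59.5 and 66.0 CPM in cKO and 48.2, 48.8 and 44.2 CPM in WT (log2 0.55 ± 0.10, edgeR adjusted p = 0.0119). Its call was lost without WT replicate 10 (0.0516), 14 (0.0545) or 19 (0.0629).

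In the machinery of entry into the ER, 2 of 23 genes rose and edgeR called 0 lower (0 at an unadjusted p under 0.05, 0 by DESeq2 and by limma voom). Among all tested genes 2.79% were called higher and 3.64% lower. Both that rose in this list encode parts of the signal peptidase. Sec11c, a catalytic subunit, had 99.6, 89.3, 90.3 and 96.5 CPM in cKO and 75.9, 70.3 and 69.0 CPM in WT (log2 0.39 ± 0.06 SE, edgeR adjusted p = 0.00761, and 0.053 without WT replicate 14). Spcs3, an accessory subunit, had 151, 121, 118 and 146 CPM in cKO and 106, 104 and 101 CPM in WT (log2 0.37 ± 0.09, edgeR adjusted p = 0.0465). Spcs3 missed the threshold when cKO replicate 2 (0.0603) or 12 (0.0868) or WT replicate 10 (0.13), 14 (0.164) or 19 (0.164) was left out, and with the B and plasma cell covariate (0.0623).

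Further along the secretory path, 2 of 36 other ER folding, calcium and transport genes rose and edgeR called 0 lower (2 at an unadjusted p under 0.05, 0 by DESeq2 and by limma voom). For this list and the N-glycan list below, the shares over all tested genes were 2.79% higher and 3.64% lower. Sec24d, a COPII coat gene for export from the ER, had 32.1 to 37.5 CPM in cKO and 26.6 to 27.9 CPM in WT (log2 0.35 ± 0.07 SE, edgeR adjusted p = 0.0207), a call that ended when cKO replicate 7 (0.0588) or WT replicate 10 (0.102), 14 (0.0951) or 19 (0.0663) was left out. Rcn3, a calcium-binding chaperone gene that overlaps antisense Gm45669, had 13.9, 11.7, 10.9 and 7.15 CPM in cKO and 6.54, 4.96 and 5.79 CPM in WT (log2 0.92 ± 0.21, edgeR adjusted p = 0.0346). Leaving out cKO replicate 2 (0.051), 3 (0.0779) or 7 (0.0664) or WT replicate 10 (0.0811), 14 (0.163) or 19 (0.12) ended that call. Of 23 N-glycan genes Stt3b, which encodes a catalytic subunit of oligosaccharyltransferase, fell to 153 ± 5.86 CPM in cKO, against 185 ± 7.60 CPM in WT (SD, n = 4 and 3, log2 -0.27 ± 0.06, edgeR adjusted p = 0.0205). Leaving out cKO replicate 3 (0.0506) or WT replicate 10 (0.081), 14 (0.053) or 19 (0.0891) ended that call, and Lman1, a cargo receptor gene of the same list, had an adjusted p of 0.177.

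The other ER-associated degradation genes and the disulfide formation genes gave no calls by edgeR. Of 27 degradation genes edgeR called 0 (with an unadjusted p under 0.05, 4 were higher and 1 lower, with 1 higher call by DESeq2 and 1 by limma voom), and the lowest p values were those of Ube2g2, a ubiquitin-conjugating enzyme gene (log2 0.23 ± 0.06 SE, adjusted p = 0.0611), and Edem2 (0.22 ± 0.08, adjusted p = 0.133). Of 15 disulfide formation genes edgeR also called 0 (with an unadjusted p under 0.05, 2 were higher and 0 lower, and DESeq2 and limma voom called 0), led by Prdx4, an ER peroxiredoxin gene (0.26 ± 0.08, adjusted p = 0.111), and Txndc5 (0.13 ± 0.06, adjusted p = 0.217).

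**Figure D4:**
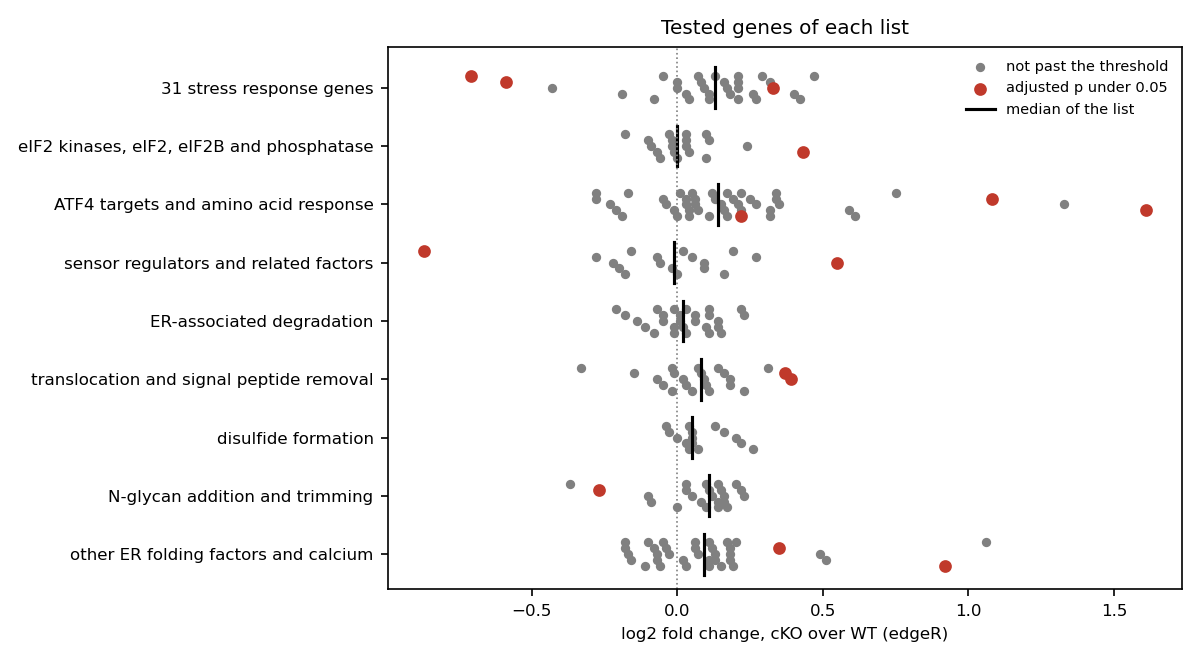
Log2 fold change, cKO over WT, of every tested gene of the 31 and of the 8 further lists, with genes past the threshold in red and the median of each list as a black bar. Medians lie between -0.012 and 0.143, and the red points furthest from 0 are Vldlr and Stc2 above it and Map3k5, Ppp1r15a and Dnajb9 below it.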

How the data were processed

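Messenger RNA of 7 libraries was measured. The deposited table gave a raw count per Ensembl gene and library. Its values were whole and their totals differed between libraries, so they were taken as not normalized. The library kit was stranded and followed mRNA selection, per the labels' protocols. Reads were demultiplexed with bcl2fastq 2.17 and the build was mm10, per the submitters' processing notes. Aligner, counting tool and use of strand: not given in the sources used here. Symbols, coordinates and exon lengths were taken from GENCODE mouse release 21 (mm10), with 37693 of 39017 identifiers matched. The lowest chi-square per gene between libraries was 6.28, so none was counted as a repeat of another.

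Genes with low counts were removed by filterByExpr, and 15968 were tested for cKO against WT by the quasi-likelihood test of edgeR 4.0.16 (R 4.3.3) with TMM factors and no covariate. P-values were adjusted by the Benjamini-Hochberg method over all of them, at a threshold of 0.05. CPM used the same factors, and the SE of a log2 fold change came from its F statistic. Alternatives were DESeq2 1.42.0, limma 3.58.1 (voom with quality weights), other factors and filters, covariates (mean level of B and plasma cell or of handling and immediate early genes), a 0.1 threshold and each library left out. The test was checked on simulated counts whose changes were larger than those of most members. That check does not show how often changes as small as theirs would be called. Promoters are RefSeq windows on GRCm38.p6. All 31 members are named, with the CPM of each library for genes called, genes without overlap between groups, sensors and transcription factors. Each further list gives its called genes, or else those of lowest p up to 2. Members shown beyond this, such as Hspa5, Sdf2l1, Derl3 and Asns, were chosen after their values were seen. The members and lists were chosen with earlier results of these data known. Python 3.11.15, pandas 2.3.3 and matplotlib 3.10.9 made the tables and plots.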

Additional observations from a re-analysis of the deposited data

Results flagged for a closer look

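Among 43 genes examined for 1 cKO library far from the other 3, 2 were found, and chance alone flags about 1 in 20. Pdia4 had 158.5 CPM in cKO replicate 2, against 122.3 to 127.2 CPM in the other cKO libraries. Vldlr had 2.794 CPM in cKO replicate 12, against 5.784 to 6.361 CPM in the other cKO libraries. With these libraries included, the cKO values of both genes lay above all WT values.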

How the results depend on the processing

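Depth limited the lowest genes, Chac1 and Derl3. No paired analysis was possible because the cKO and WT libraries share no replicate number. The calls of Hyou1, Dnajb9 and Ppp1r15a were kept with DESeq2 size factors, upper-quartile factors, no filter and the B and plasma cell covariate. Counts of members higher in cKO were 3 by DESeq2, 3 by limma voom, 2 with the stricter filter, 4 at a threshold of 0.1 and 0 with the immediate early covariate, and 0 to 2 on leaving out 1 library. Counts of members lower were 0 with the immediate early covariate and 0 to 2 on leaving out 1 library. Over all genes the 1028 calls were 1615 by DESeq2, 1729 by limma voom, 1644 at 0.1, 32 with the immediate early covariate, whose summed level does not overlap between the groups, and 419 to 1065 on leaving out 1 library. Further pathway genes higher numbered 14 by DESeq2, 15 by limma voom, 15 at 0.1, 0 with the immediate early covariate and 0 to 8 on leaving out 1 library, and lower ones 4 by limma voom, 0 with that covariate and 1 to 2 on leaving out 1 library. Kdm6a (log2 -0.24, adjusted p = 0.0414) had -0.24 (0.0772) with the B and plasma cell covariate, -0.079 (0.858) with the immediate early covariate and -0.27 to -0.21 on leaving out 1 library, and stayed past the threshold only when that library was cKO replicate 2. Of 525 member values under the alternatives, 470 kept direction and side of the threshold and 27 changed sign, all in genes not past the threshold. With the immediate early covariate the log2 values were -0.21 for Manf, -0.23 for Calr, -0.048 for Pdia3, -0.30 for Sec61b, -0.12 for Derl1 and -0.046 for Derl3. With the B and plasma cell covariate Derl3 had -0.16 and Derl1 -0.000. Atf6 had -0.061 by limma voom, Atf4 0.003 with upper-quartile factors and 0.002 with the stricter filter, and Derl1 -0.001 by DESeq2 and -0.007 with no filter. On leaving out 1 library the log2 values ran from -0.022 to 0.28 for Atf6, -0.047 to 0.025 for Atf4, -0.021 to 0.13 for Manf, -0.013 to 0.10 for Calr, -0.014 to 0.077 for Herpud1, -0.041 to 0.033 for Derl1 and -0.38 to 0.28 for Derl3. The cause was not tested. Leaving out Gm42418, chosen after seeing the data, changed no member's call.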

Other observations

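The promoter table also held 28 genes outside the list of 31 with an ERSE, of which 10 were tested. Tdrd9 fell (log2 -1.38 ± 0.29 SE, edgeR adjusted p = 0.0208) and edgeR called 0 higher (0 at an unadjusted p under 0.05, 0 by DESeq2 and by limma voom), with a median log2 fold change of -0.13 over the 10. In the lower direction there were 4 at an unadjusted p under 0.05, 2 by DESeq2 and 2 by limma voom. Of all tested genes 10.4% were lower and 11.1% higher at that unadjusted p by edgeR. Of 6 tested genes outside the list with an ERSE-II, Lgalsl rose (log2 1.08 ± 0.15, edgeR adjusted p = 0.00297) and edgeR called 0 lower (1 at an unadjusted p under 0.05, 0 by DESeq2 and by limma voom). In the higher direction there were 3 of these 6 at an unadjusted p under 0.05, 2 by DESeq2 and 1 by limma voom. These genes were named after their values were seen.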
